A study of Arabidopsis thaliana with 24 samples.

Results

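The nitrate response of nlp7 mutant roots of Arabidopsis thaliana was set against that of Col-0 roots. The measure is the change in transcript level after nitrate in nlp7 minus the same change in Col-0, called the response difference below, and a negative value means a lower response in nlp7. It uses 12 of the 24 arrays of the series, 3 each for nlp7 at 35 min, nlp7 at 0 min, Col-0 at 35 min and Col-0 at 0 min, and covers all 22714 probe sets that are not array controls. All plants of these groups had spent 9 days with 12.5 mM ammonium succinate as the nitrogen source. Roots were taken after 35 min in 25 mM KNO3 at pH 5.5 or just before it, and each replicate was about 200 seedlings grown in 3 boxes. The other 12 arrays hold nlp6nlp7 and nlp6 roots from the same growth and treatment. The labels give each line by its gene names alone, without the allele, and Col-0 is the unmutated reference line.

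NLP7 belongs to the NIN-like proteins, plant transcription factors with a DNA-binding RWP-RK domain. In Arabidopsis it is known as a main regulator of the primary nitrate response: nitrate binds the protein, and it accumulates in the nucleus within minutes and activates genes of nitrate uptake, assimilation and downstream regulators. NLP6 is its closest relative and is known to act in the same response. The comparison asks which genes respond differently to nitrate in the nlp7 mutant.

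The design holds no potassium salt control, and the effects of time, handling and potassium cannot be told apart from that of nitrate. Values are whole-root intensities, in which fewer cells of a type and less RNA per cell cannot be told apart. Correlations between replicates, taken across probe sets, were 0.979 to 0.991 in the nlp7 groups and 0.988 to 0.992 in the Col-0 groups. Replicate 1 of nlp7 stood apart from the other 10 arrays at both times: on the second principal component of the 12 arrays (18.5% of the variance) it lay at 38.8 at 35 min and 41.8 at 0 min, against -16.6 to 0.3 for the others. The counts and the called genes are given without it after the first result. No probe set carries the name NLP7 in the tables used here. The unnamed probe set 254195_at was picked for the widest gap with all 12 nlp7 and nlp6nlp7 arrays below the other 12. The labels thus chose it, and its separation follows from that choice. It had intensities of 11, 32 and 21 in nlp7 at 35 min and 18, 18 and 18 in nlp7 at 0 min, against 425, 386 and 329 in Col-0 at 35 min and 621, 607 and 622 in Col-0 at 0 min. Summed intensities of 3 shoot and photosynthesis markers (LHCB4.1, RCA and PRK) were 469 to 565 in nlp7 at 35 min and 414 to 620 in nlp7 at 0 min, against 416 to 441 in Col-0 at 35 min and 338 to 444 in Col-0 at 0 min. The 2 measured root hair genes, EXPA7 and EXPA18, summed to 818 to 1163 in nlp7 at 35 min and 1057 to 1342 in nlp7 at 0 min, against 864 to 1136 in Col-0 at 35 min and 1099 to 1258 in Col-0 at 0 min. None of these 5 genes was called in the response difference, and the part of shoot or root hair RNA in the results was not tested.

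In nlp7 roots most of the genes that differed rose less after nitrate than in Col-0. The response differed between nlp7 and Col-0 in 60 probe sets (0.264% of 22714, limma adjusted p under 0.05), and 1379 had an unadjusted p under 0.05. Of the 60, 50 had a lower response in nlp7 (0.22%) and 10 a higher one (0.044%). The 50 had a median log2 response of 1.17 in nlp7, against 2.34 in Col-0, and response differences from -2.59 to -0.61 with a median of -1.0. Over all probe sets the median response difference was 0.013. These responses chose the 50, so their size is a description. In nlp7, 35 of the 50 still rose after nitrate (2.51% of all probe sets rose in nlp7), 2 fell (2.61%) and 13 passed no test. In Col-0, 49 of the 50 rose (4.65%) and all 10 of the others fell (5.5%). The 10 with a higher value were genes that nitrate lowered in Col-0, with a median log2 response of -0.72 in nlp7, against -1.53 in Col-0. Of these 10, 7 still fell in nlp7. Of the 60 probe sets, 25 match 1 gene each, 20 lower and 5 higher. A further 34 match no gene in the tables used here and 1 matches several.

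**Figure D1:**
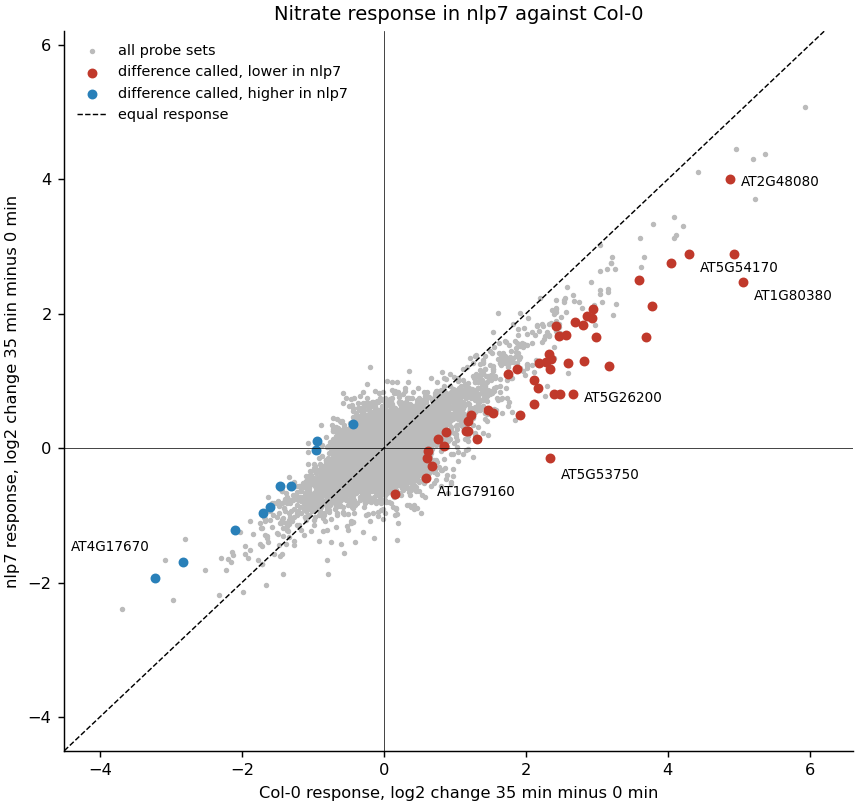
Log2 response (35 min minus 0 min) in nlp7 on the vertical axis against that in Col-0 on the horizontal axis, with 1 point per probe set, grey for all 22714, red for the 50 with a lower and blue for the 10 with a higher response in nlp7, and a dashed line of equal response. Most red points lie between the line and 0, so a rise remained in nlp7, while AT5G53750 (-0.14 in nlp7, against 2.34 in Col-0) lies near 0 in nlp7.

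The count of 60 depends on single arrays and on the estimate of spread. Leaving out nlp7 replicate 2 at 35 min gave 33, and nlp7 replicate 1 at 35 min 39. Leaving out nlp7 replicate 1 at 0 min gave 32, and nlp7 replicate 2 at 0 min 39. Leaving out Col-0 replicate 2 at 35 min gave 28, and Col-0 replicate 1 at 35 min 35. At 0 min, leaving out Col-0 replicate 1, 2 or 3 gave 30, 30 and 39. The 10 higher calls were fewer still: 2, 4 and 6 without Col-0 replicate 2, 1 or 3 at 0 min, 3 and 4 without Col-0 replicate 2 or 1 at 35 min, 4 without nlp7 replicate 2 at 0 min, and 5 without nlp7 replicate 1 at 35 min. The 50 lower calls numbered 25 without nlp7 replicate 1 at 0 min and 25 without Col-0 replicate 2 at 35 min, and at most 48 without any 1 array. They were 26 without nlp7 replicate 2 at 35 min, 31 without Col-0 replicate 1 at 35 min, and 26, 28 and 33 without Col-0 replicate 1, 2 or 3 at 0 min. With nlp7 replicate 1 dropped at 35 min and 0 min together, 26 were called, 24 lower and 2 higher, of which 24 were among the 60. With only the 12 arrays compared, which leave 8 residual degrees of freedom in place of 16, it was 9, all lower. AT1G80380, AT3G18560 and AT4G18340 kept their calls under every alternative run (26). AT5G26200 kept its call under the 24 that hold it, as both dim filters leave it out. AT5G53750, AT1G79160, AT1G73920, HYH and AT2G48080 kept theirs without any 1 array and lost them with only the 12 arrays compared. AT1G73920 and HYH also lost theirs with a replicate block within genotype (limma adjusted p = 0.0527 and 0.0509). The other 16 named genes lost theirs without at least 1 array, where their highest limma adjusted p lay between 0.0529 for AT5G28610 (without nlp7 replicate 2 at 35 min) and 0.16 for AT4G17670 (without Col-0 replicate 1 at 0 min). None of the 25 changed sign under any alternative run.

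With nlp7 replicate 1 dropped at both times, 11 of the 25 named genes kept their call: AT1G80380, AT5G53750, AT5G26200, AT1G79160, AT1G73920, AT3G18560, HYH, AT5G08010, AT4G18340, AT2G48080 and AT1G11700. The lower genes that lost it were AT5G52050 (response difference -1.69, limma adjusted p = 0.155), AT5G54170 (-1.24, 0.0853), AT1G49500 (-1.19, 0.155), AT2G36470 (-1.02, 0.164) and AT5G03390 (-1.12, 0.188). The call was also lost for AT5G28610 (-1.1, adjusted p = 0.0783), AT2G46620 (-0.97, 0.104), TUA1 (-0.87, 0.206), AT3G50910 (-0.77, 0.0964) and AT5G15640 (-0.62, 0.164). Of the 5 higher genes, 4 lost it: AT4G17670 (0.96, adjusted p = 0.267), AT4G23870 (0.77, 0.164), AT2G19310 (0.72, 0.119) and AT3G16990 (0.81, 0.0968).

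The named gene with the most negative response difference was AT1G80380, the glycerate kinase gene, whose enzyme is known for the last step of photorespiration, the return of glycerate to the Calvin cycle. Its intensities were 1550, 1208 and 1337 in nlp7 at 35 min and 329, 193 and 175 in nlp7 at 0 min. In Col-0 they were 5964, 5319 and 6675 at 35 min and 150, 145 and 168 at 0 min. All 3 nlp7 arrays lay far below all Col-0 arrays at 35 min and slightly above them at 0 min. With 26 added to each intensity, the scale of all fold values here, it rose 5.54-fold in nlp7, against 33.2-fold in Col-0. The response difference was -2.59 ± 0.29 (SE, n = 3 arrays per group, limma adjusted p = 0.000275, 95% interval -3.19 to -1.99).

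AT2G48080, of the family of iron-dependent dioxygenases, had 3070, 2815 and 3245 in nlp7 at 35 min and 165, 163 and 164 in nlp7 at 0 min, against 6085, 5820 and 6603 in Col-0 at 35 min and 186, 163 and 209 in Col-0 at 0 min. It still rose 16.1-fold in nlp7, against 29.3-fold in Col-0, a response difference of -0.86 ± 0.13 (limma adjusted p = 0.00528). The groups overlapped at 0 min and lay far apart at 35 min. AT4G18340, a glycosyl hydrolase family gene, had 3438, 3441 and 3402 in nlp7 at 35 min and 824, 868 and 870 in nlp7 at 0 min, against 4895, 5171 and 5287 in Col-0 at 35 min and 682, 723 and 650 in Col-0 at 0 min. The nlp7 arrays were the lower ones after nitrate and the higher ones before it. Its response difference was -0.88 ± 0.10 (adjusted p = 0.000305). AT1G73920, an alpha/beta-hydrolase family gene, had 1624, 1410 and 1684 in nlp7 at 35 min and 683, 637 and 582 in nlp7 at 0 min, against 3184, 3497 and 3189 in Col-0 at 35 min and 592, 643 and 749 in Col-0 at 0 min. The 2 genotypes overlapped before nitrate only, and the response difference was -1.0 ± 0.16 (adjusted p = 0.00564).

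**Figure D2:**
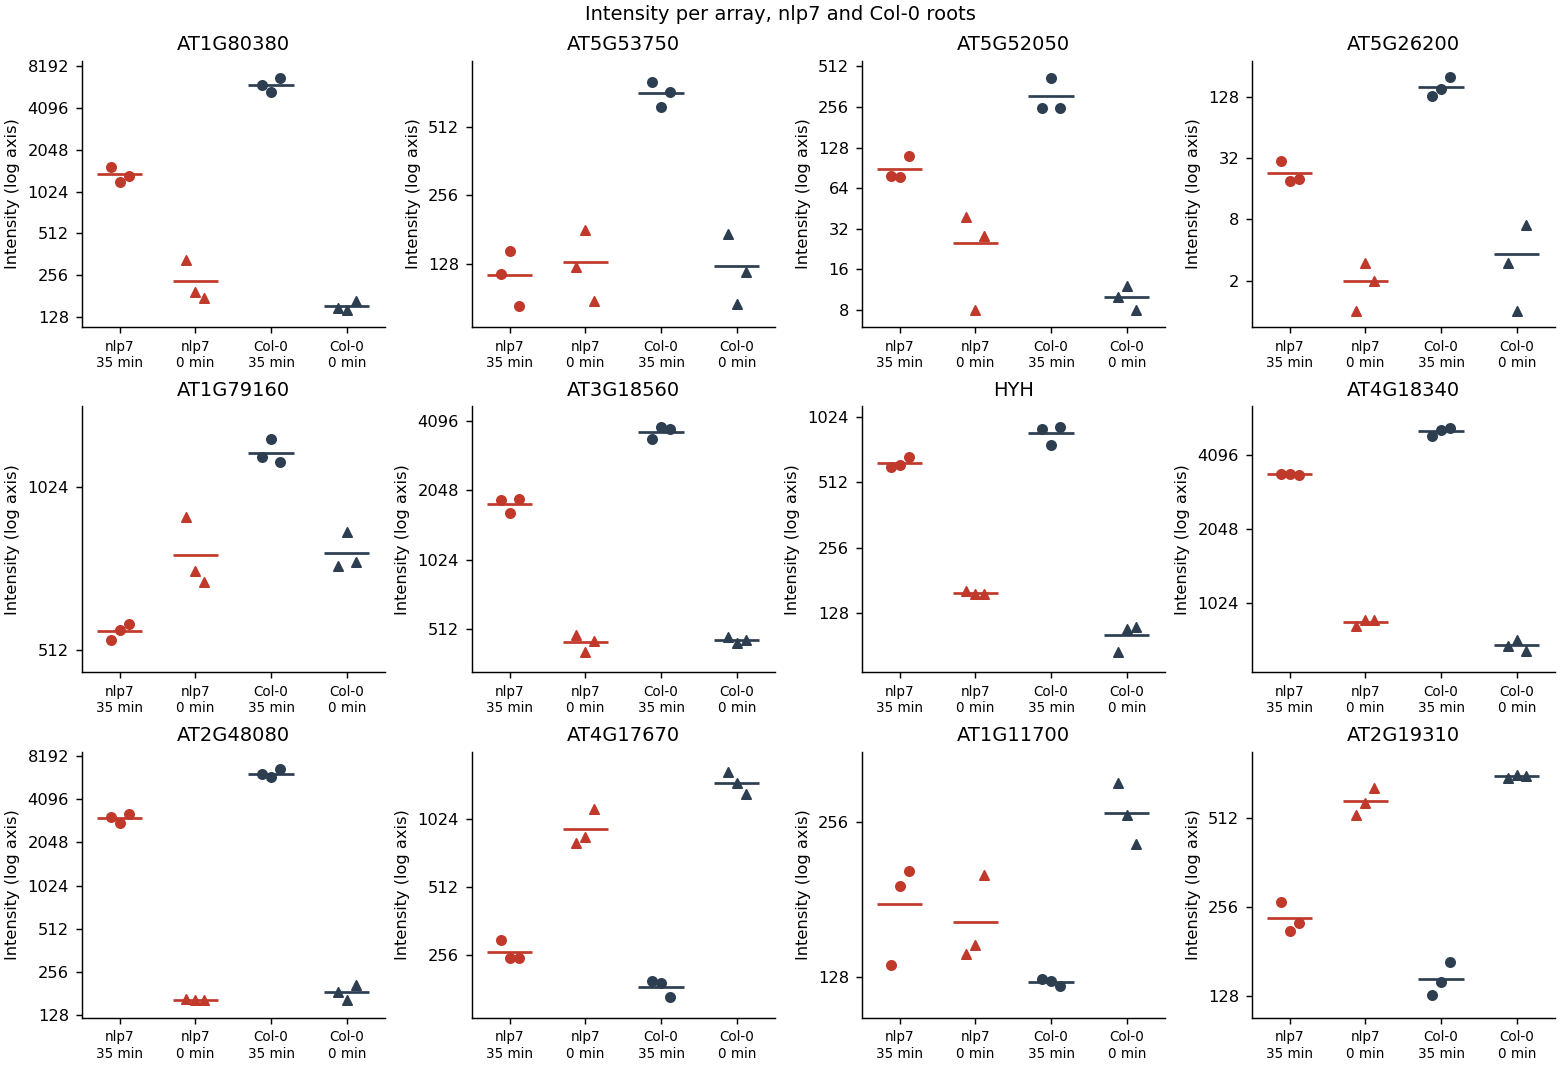
Intensity on a log axis for 12 named genes, with 1 point per array, circles at 35 min, triangles at 0 min, red for nlp7 and dark for Col-0, and bars at the mean of 3 arrays. In the first 9 panels the red circles lie below the dark circles, and in the last 3 (AT4G17670, AT1G11700, AT2G19310) they lie above them while the red triangles lie below the dark triangles.

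Genes of transport families are given together here by annotation, not by the size of the difference. Whether such genes were frequent among the called ones was not tested. AT5G26200 encodes a member of the mitochondrial carrier family, proteins that move metabolites across membranes. Its intensities were 30, 19 and 20 in nlp7 at 35 min and 1, 3 and 2 in nlp7 at 0 min, against 133, 153 and 203 in Col-0 at 35 min and 3, 1 and 7 in Col-0 at 0 min. The gene is dim, and at 0 min the arrays of both genotypes lay near the lowest value of 1. The rise in nlp7 was 1.74-fold, against 6.32-fold in Col-0, and the response difference was -1.86 ± 0.20 (limma adjusted p = 0.000259). Its size depends on the pseudocount: it was -2.34 with 3 and -1.05 with 103 in place of 26. AT5G15640, another mitochondrial carrier family gene, had 883, 815 and 942 in nlp7 at 35 min and 769, 686 and 771 in nlp7 at 0 min, against 1217, 1129 and 1245 in Col-0 at 35 min and 637, 594 and 692 in Col-0 at 0 min. Its groups overlapped at 0 min and not at 35 min. Its response was 0.24 in nlp7, which passed no test, against 0.88 in Col-0, with a response difference of -0.64 ± 0.13 (adjusted p = 0.0351). The call of AT5G15640 was lost with 9 of 12 single arrays left out, at a limma adjusted p of up to 0.115.

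AT5G52050, known as DTX50, encodes an efflux carrier of the MATE family that is known to export abscisic acid. It had 79, 78 and 111 in nlp7 at 35 min and 39, 8 and 28 in nlp7 at 0 min, against 251, 418 and 250 in Col-0 at 35 min and 10, 12 and 8 in Col-0 at 0 min. The nlp7 arrays at 0 min spread more widely than the others, and replicate 2 of them fell within the Col-0 arrays. The response difference was -1.95 ± 0.36 (limma adjusted p = 0.0188), and -1.24 with a pseudocount of 103 (adjusted p = 0.00448). With a pseudocount of 3 it was -2.63 and the call was lost (adjusted p = 0.226). The call was also lost with 7 of 12 single arrays left out, at an adjusted p of up to 0.0712 (without Col-0 replicate 2 at 35 min), and with nlp7 replicate 1 dropped (adjusted p = 0.155). It was lost too with only the 12 arrays compared (adjusted p = 0.0941).

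In some genes the rise seen in Col-0 was not seen in nlp7. AT5G53750 encodes a protein with CBS domains, which are known in other proteins to bind adenosine nucleotides. It had 115, 145 and 83 in nlp7 at 35 min and 124, 180 and 88 in nlp7 at 0 min, against 807, 627 and 729 in Col-0 at 35 min and 172, 85 and 117 in Col-0 at 0 min. The nlp7 arrays at 35 min overlapped those at 0 min of both genotypes, and only the Col-0 arrays at 35 min were high. The log2 response was -0.14 ± 0.25 in nlp7 and 2.34 ± 0.25 in Col-0, a difference of -2.48 ± 0.36 (limma adjusted p = 0.0036, 95% interval -3.23 to -1.74). AT2G36470 had 70, 120 and 106 in nlp7 at 35 min and 83, 82 and 94 in nlp7 at 0 min, against 262, 307 and 223 in Col-0 at 35 min and 116, 69 and 90 in Col-0 at 0 min. Here too the Col-0 arrays at 35 min stood alone, with a response difference of -1.18 ± 0.24 (adjusted p = 0.0351). The call of AT2G36470 was lost with 9 of 12 single arrays left out. Its limma adjusted p there was up to 0.132 (without Col-0 replicate 2 at 35 min).

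AT1G79160 moved in opposite directions. Its intensities were 535, 557 and 572 in nlp7 at 35 min and 900, 718 and 684 in nlp7 at 0 min, against 1161, 1256 and 1137 in Col-0 at 35 min and 731, 847 and 746 in Col-0 at 0 min. The genotypes overlapped before nitrate and lay far apart after it. The gene fell after nitrate in nlp7, by 0.44 on the log2 scale (limma adjusted p = 0.0252), and rose by 0.60 in Col-0 (adjusted p = 0.00102), a response difference of -1.04 ± 0.16 (adjusted p = 0.00564). TUA1, an alpha tubulin gene, had 156, 167 and 155 in nlp7 at 35 min and 214, 189 and 185 in nlp7 at 0 min, against 279, 267 and 260 in Col-0 at 35 min and 134, 169 and 174 in Col-0 at 0 min. Its nlp7 arrays were the higher ones before nitrate and the lower ones after it. The response was -0.26 in nlp7, which passed no test, and 0.68 in Col-0, with a difference of -0.94 ± 0.19 (adjusted p = 0.0389). The call was lost whichever of the 12 arrays was left out, at an adjusted p of up to 0.151 (without Col-0 replicate 1 at 0 min).

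HYH encodes a bZIP transcription factor, the closest homolog of HY5, a regulator of light responses. Its intensities were 604, 616 and 671 in nlp7 at 35 min and 162, 158 and 157 in nlp7 at 0 min, against 898, 763 and 923 in Col-0 at 35 min and 85, 109 and 111 in Col-0 at 0 min. The genotypes did not overlap at either time, with nlp7 lower after nitrate and higher before it. HYH was lower in nlp7 at 35 min, by -0.43 on the log2 scale (limma adjusted p = 0.0402), and higher at 0 min, by 0.54 (adjusted p = 0.0339). The response difference was -0.97 ± 0.14 (adjusted p = 0.00455).

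The remaining 8 lower genes are given here by locus. AT3G18560 had 1860, 1633 and 1884 in nlp7 at 35 min and 483, 410 and 456 in nlp7 at 0 min, against 3403, 3832 and 3780 in Col-0 at 35 min and 473, 448 and 458 in Col-0 at 0 min. Its replicates spread little, so a response difference of -0.99 ± 0.12 had a limma adjusted p of 0.000618. AT5G28610 had 330, 294 and 426 in nlp7 at 35 min and 36, 40 and 44 in nlp7 at 0 min, against 868, 804 and 1021 in Col-0 at 35 min and 52, 54 and 46 in Col-0 at 0 min. It still rose 5.64-fold in nlp7, against 12-fold in Col-0. AT5G54170 rose 7.39-fold in nlp7, against 19.8-fold in Col-0, with a response difference of -1.42 ± 0.26 (adjusted p = 0.0187). AT1G49500 rose 6.72-fold in nlp7, against 16.6-fold in Col-0 (-1.30 ± 0.25, adjusted p = 0.029). These 4 kept a clear rise in the mutant. AT5G03390, AT2G46620, AT5G08010 and AT3G50910 had response differences of -1.17, -1.01, -0.92 and -0.73, with log2 responses of 1.17, 0.52, 1.40 and 0.49 in nlp7 and 2.34, 1.53, 2.32 and 1.22 in Col-0. Their calls were lost with 10, 3, 9 and 11 of 12 single arrays left out. AT2G46620 encodes an ATPase family protein.

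The 5 named genes with a higher value in nlp7 were ones that fell after nitrate in Col-0. AT4G17670 encodes a protein with an FLZ zinc finger, a plant family known to bind SnRK1, the kinase of energy and sugar signalling. It had 298, 249 and 249 in nlp7 at 35 min and 797, 848 and 1127 in nlp7 at 0 min, against 197, 192 and 167 in Col-0 at 35 min and 1634, 1472 and 1318 in Col-0 at 0 min. The nlp7 arrays were lower before nitrate and higher after it, so the fall was 0.309-fold in nlp7, against 0.141-fold in Col-0 (response difference 1.13 ± 0.23, limma adjusted p = 0.0436). AT2G19310, of the family of small heat shock proteins, had 265, 211 and 226 in nlp7 at 35 min and 521, 576 and 647 in nlp7 at 0 min, against 129, 142 and 166 in Col-0 at 35 min and 699, 714 and 708 in Col-0 at 0 min. Again no array of one genotype lay within the other at either time (0.88 ± 0.15, adjusted p = 0.015).

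AT1G11700, a gene of the senescence regulator family S40, had 135, 192 and 206 in nlp7 at 35 min and 142, 148 and 202 in nlp7 at 0 min, against 127, 126 and 123 in Col-0 at 35 min and 304, 264 and 232 in Col-0 at 0 min. The times overlapped in nlp7 and not in Col-0, with a response difference of 1.04 ± 0.20 (limma adjusted p = 0.029). AT4G23870 had a log2 response of -0.57 in nlp7 and -1.46 in Col-0 (0.89 ± 0.17, adjusted p = 0.029). AT3G16990, which encodes a TENA family protein of thiamin salvage, had a response of 0.36 in nlp7, which passed no test, and -0.43 in Col-0 (0.80 ± 0.16, adjusted p = 0.0384). Each of these 5 calls was lost without some single arrays, from 3 of 12 for AT2G19310 (adjusted p of up to 0.0536) to 11 of 12 for AT4G17670 (up to 0.16).

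By median level the genotypes parted mainly at 35 min for the lower responses, and at both times for the higher ones. The response difference is the level in nlp7 minus Col-0 at 35 min less the same at 0 min, so these values share arrays with it and describe where it came from. Over the 50 lower probe sets the level difference had a median of -0.92 at 35 min and 0.18 at 0 min. At 35 min, 48 of them were lower in nlp7 by limma (0.872% of all probe sets were), and at 0 min 1 was higher (0.0616%). The nlp7 arrays at 35 min were all below those of Col-0 for each of the 50, against 7.07% of all probe sets, as the choice favours. They were all above for each of the 10, against 9.96%. Over the 10 higher probe sets the medians were 0.47 at 35 min and -0.44 at 0 min. Of these, 6 were higher in nlp7 at 35 min by limma (0.374%) and 1 was lower at 0 min (0.123%). The arrays of the 2 genotypes did not overlap at 0 min for 9 of these 10 and for 13 of the 50, against 12.3% of all probe sets. The choice favours such gaps at 0 min too. Of the 5 named higher genes, AT2G19310 alone passed at 35 min (0.60, adjusted p = 0.00667), and none passed at 0 min, where the values ran from -0.67 for AT4G17670 to -0.28 for AT2G19310.

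**Figure D3:**
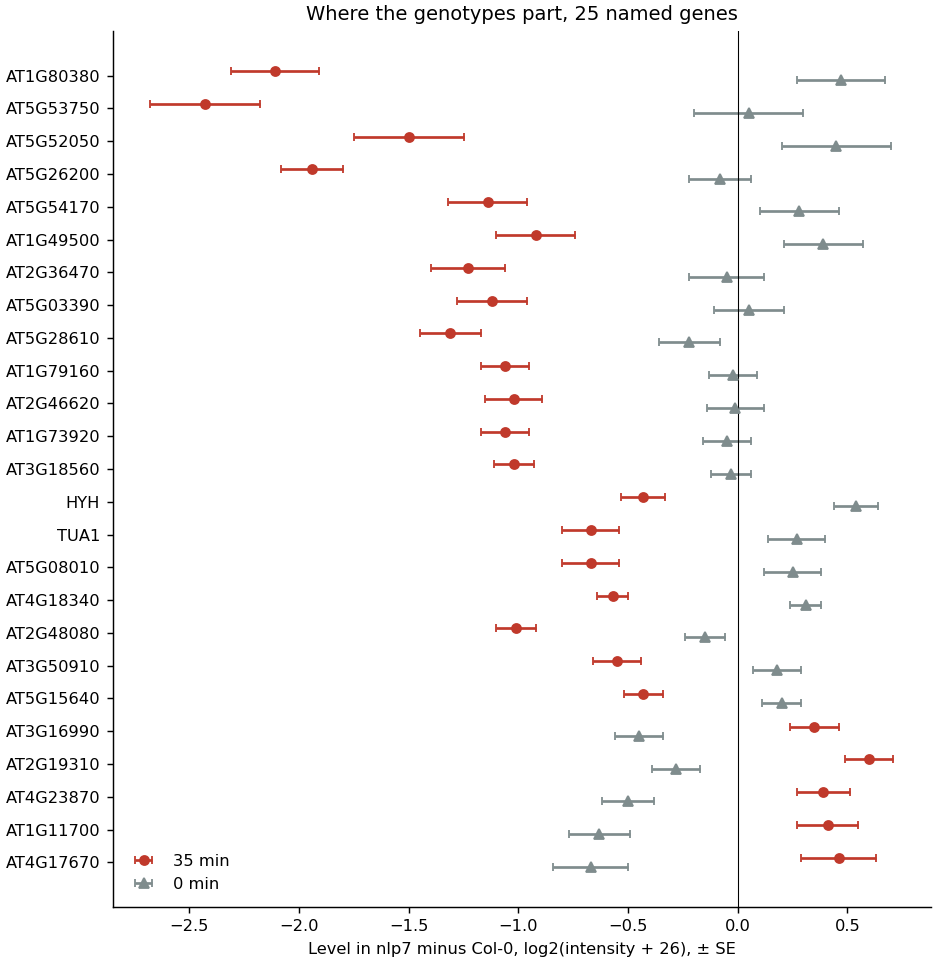
Level in nlp7 minus Col-0 on the scale of log2(intensity + 26), ± SE, for the 25 named genes, with red circles at 35 min and grey triangles at 0 min. For the first 20 genes the circles lie left of 0 (AT5G53750 at -2.43) and the triangles between -0.22 and 0.54, and for the last 5 the circles lie right of 0 and the triangles left of it.

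The other 12 arrays measured loss of NLP7 in a second setting, as the response of nlp6nlp7 minus that of nlp6. None of these arrays enters the response difference of nlp7 against Col-0. The 2 contrasts share only the estimate of the spread of each probe set. In nlp6nlp7 against nlp6, 102 probe sets differed (0.449% of 22714, limma adjusted p under 0.05), 82 lower (0.361%) and 20 higher (0.0881%). All 50 probe sets lower in nlp7 had a negative difference there, and 33 (66% of the 50, 40.2% of the 82) were called lower. At an unadjusted p under 0.05, 47 of the 50 were lower there (3.91% of all probe sets) and 8 of the 10 higher (3.72%). All 10 higher in nlp7 had a positive difference, and 4 (40% of the 10, 20% of the 20) were called higher. Medians of the difference of nlp6nlp7 against nlp6 were -0.98 over the 50 and 0.54 over the 10, beside 0.018 over all probe sets. With each 12 arrays fitted alone, so that no estimate was shared, 9 were called in nlp7 against Col-0, all lower, and all 9 were among the 58 called in nlp6nlp7 against nlp6 (0.211% of probe sets were called lower there).

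AT1G80380 had 548, 782 and 746 in nlp6nlp7 at 35 min and 277, 182 and 302 in nlp6nlp7 at 0 min, against 5663, 6076 and 7052 in nlp6 at 35 min and 190, 221 and 150 in nlp6 at 0 min. The difference of -3.52 ± 0.29 (limma adjusted p = 1.72e-06) stands beside -2.59 ± 0.29 for nlp7 against Col-0. AT5G26200 had 6, 5 and 9 in nlp6nlp7 at 35 min and 5, 3 and 3 in nlp6nlp7 at 0 min, against 114, 122 and 180 in nlp6 at 35 min and 2, 4 and 4 in nlp6 at 0 min. In the double mutant its arrays stayed near the floor at both times (difference -2.33 ± 0.20, adjusted p = 2.07e-06). AT5G53750 had 133, 84 and 98 in nlp6nlp7 at 35 min and 66, 94 and 117 in nlp6nlp7 at 0 min, against 650, 658 and 830 in nlp6 at 35 min and 110, 197 and 187 in nlp6 at 0 min. As in nlp7, the 2 times overlapped in nlp6nlp7 (difference -1.83 ± 0.36, adjusted p = 0.0198).

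Of the 20 named lower genes, 13 were called lower in nlp6nlp7 against nlp6. The 7 that were not called there were AT5G52050 (-0.98), AT1G49500 (-0.94), AT5G08010 (-0.66), AT1G79160 (-0.49), AT5G15640 (-0.40), AT5G03390 (-0.23) and TUA1 (-0.01). TUA1 had 173, 164 and 159 in nlp6nlp7 at 35 min and 177, 175 and 126 in nlp6nlp7 at 0 min, against 239, 160 and 193 in nlp6 at 35 min and 168, 168 and 224 in nlp6 at 0 min, so the 4 groups overlapped. Of the 5 named higher genes, AT2G19310 alone was called there (0.86 ± 0.15, limma adjusted p = 0.00932), while AT4G17670 had 0.59, AT4G23870 0.50, AT1G11700 0.29 and AT3G16990 0.14.

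A test of whether the loss of NLP7 differed between the 2 settings called 0 of 22714 probe sets by limma. An unadjusted p under 0.05 was found for 687 of the 22714 and for 14 of the 60. The nlp7 and Col-0 arrays that chose the 60 also enter this test, so the choice favours a difference among them. Among the 25 named genes the 2 lowest unadjusted p were those of AT5G28610, with -2.38 ± 0.19 in nlp6nlp7 against nlp6 beside -1.09 ± 0.19 in nlp7 against Col-0 (unadjusted p = 0.000125), and TUA1 (unadjusted p = 0.00262). Neither passed over all probe sets, with an adjusted p of 1, which does not show that the differences are equal. The nlp6 mutation alone was also set against Col-0. That comparison shares the Col-0 arrays with the response difference of nlp7. Over the 60 probe sets it ran from -1.02 to 0.87, with medians of -0.08 over the 50 and 0.32 over the 10. By limma 0 of the 60 were called. Each of the 10 lay above 0, from 0.06 to 0.73. Some values were large beside their SE, such as 0.87 ± 0.19 for AT5G28610 and -0.61 ± 0.19 for TUA1. Others lay near 0, such as -0.01 ± 0.16 for AT1G73920. The comparison thus does not show equal responses of nlp6 and Col-0, and the part of the shared Col-0 arrays in these values was not tested. Across the array it called 2 probe sets, and 1141 had an unadjusted p under 0.05.

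**Figure D4:**
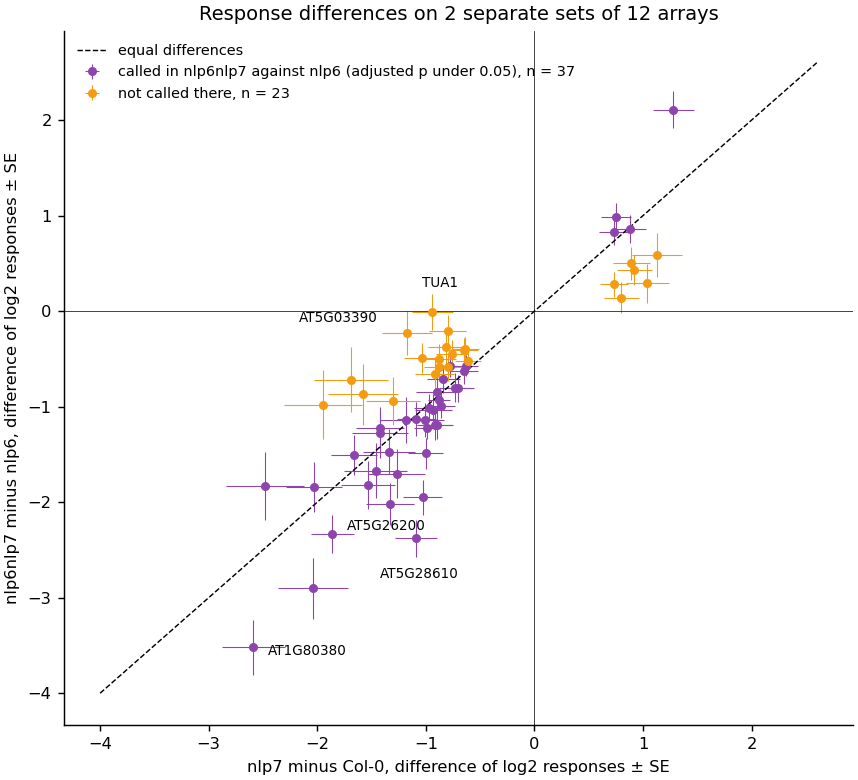
Response difference of nlp6nlp7 against nlp6 (vertical axis) and of nlp7 against Col-0 (horizontal axis), log2 ± SE, for the 60 probe sets chosen on the horizontal axis, with purple for the 37 also called in nlp6nlp7 against nlp6, orange for the 23 that were not, and a dashed line of equal differences. All points lie in the lower left or upper right part of the plot, with AT1G80380 lowest at -3.52 and TUA1 at -0.01 on the vertical axis.

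The breadth of the smaller response was measured on nitrate-responsive probe sets chosen on the nlp6 arrays, which are not part of the response difference. In nlp6, 381 probe sets rose at least 2-fold (1.68% of 22714) and 206 fell at least 2-fold (0.907%). Over the 381, the response difference of nlp7 against Col-0 had a median of -0.47, with the middle part of the values (25th to 75th percentile) from -0.73 to -0.29. It was below 0 for 357 of them (93.7%), against 47.4% of all probe sets. Of the 381, 43 (11.3%) were called lower and 0 higher. The median log2 response over the 381 was 1.05 in nlp7 and 1.52 in Col-0, and among the 123 that rose at least 4-fold in nlp6 the median response difference was -0.64, with 27 called lower (22%). Of the 22127 probe sets in neither set, 7 were called lower (0.0316%) and 4 higher (0.0181%). Among the 20 named lower genes, 17 belong to the 381, and TUA1, AT1G79160 and AT5G15640 do not.

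Array by array, the median level of the 381 over the Col-0 mean at 0 min was 1.17, 1.02 and 1.13 in nlp7 at 35 min and 0.10, -0.00 and -0.01 in nlp7 at 0 min. In Col-0 it was 1.49, 1.55 and 1.5 at 35 min and 0.02, -0.01 and -0.01 at 0 min. Each nlp7 array thus lay below each Col-0 array after nitrate, and the genotypes overlapped before it. Over the 206 lowered probe sets the medians were -1.0, -1.07 and -1.14 in nlp7 at 35 min and -0.04, -0.24 and -0.19 in nlp7 at 0 min, against -1.26, -1.16 and -1.16 in Col-0 at 35 min and -0.02, 0.03 and -0.00 in Col-0 at 0 min. The nlp7 arrays lay above those of Col-0 at 35 min and below them at 0 min. The response difference over the 206 had a median of 0.28, was below 0 for 44 (21.4%), and 6 (2.91%) were called higher. Those 6 calls were 2 without Col-0 replicate 1, 2 or 3 at 0 min, Col-0 replicate 1 or 2 at 35 min, nlp7 replicate 2 at 0 min or nlp7 replicate 1 at 35 min, 1 with nlp7 replicate 1 dropped at both times, and 0 by limma with only the arrays compared, where 1335 of all probe sets had an unadjusted p under 0.05. Of the 43 calls, the count fell to 24 when nlp7 replicate 2 at 35 min was left out and to 23 when nlp7 replicate 1 at 0 min was. It was 23 when Col-0 replicate 2 at 35 min was left out, and 25 and 26 for Col-0 replicates 1 and 2 at 0 min. The median of -0.47 stayed between -0.50 and -0.44 when any 1 array was left out, and was -0.46 with nlp7 replicate 1 dropped.

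**Figure D5:**
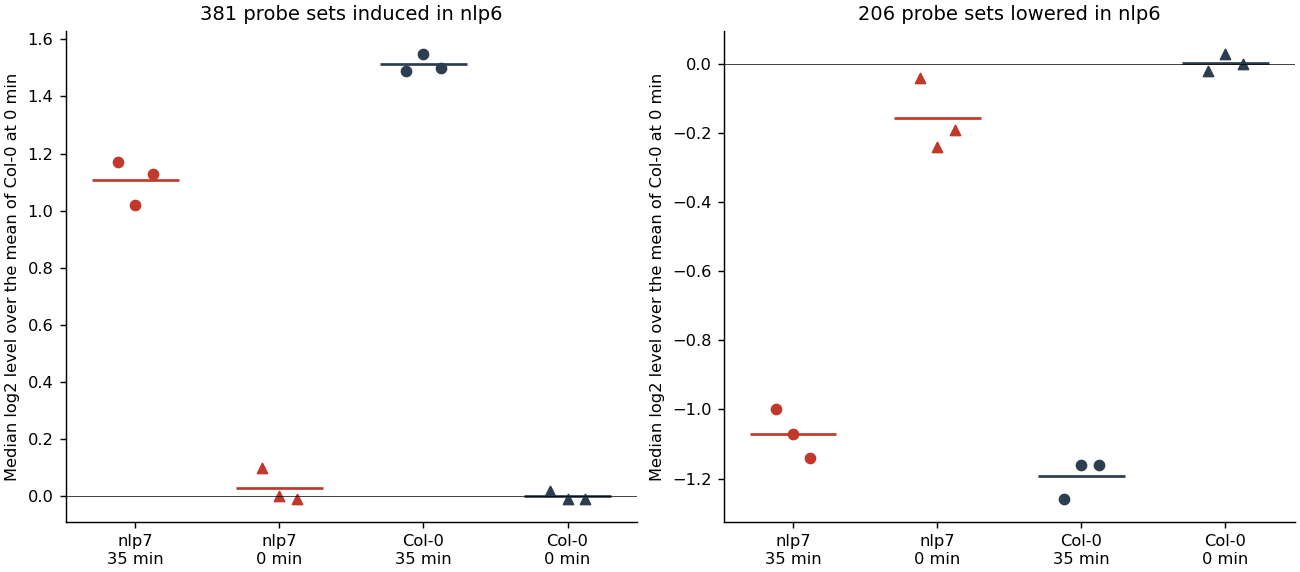
Median log2 level over the mean of Col-0 at 0 min, with 1 point per array and bars at the mean of 3, for the 381 probe sets induced (left) and the 206 lowered (right) at least 2-fold in nlp6. On the left the nlp7 arrays at 35 min reach 1.02 to 1.17, below the Col-0 arrays at 1.49 to 1.55; on the right nlp7 lies above Col-0 at 35 min and below it at 0 min.

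Genes of known nitrate and carbon pathways were read from lists, of which the tables used here name only a part. A list gene counts as measured only where a probe set matches that gene alone. The others may lie on the 8721 probe sets that match no gene, and their responses are not known here. The lists also hold glutaredoxin, hormone, low-oxygen, stress, cell type marker and reference genes, and 38 members were measured over all of them. Of these 38, 1 was called, AT1G80380 among the carbon enzymes. Over all probe sets 0.22% were called lower and 0.044% higher. Of 20 nitrate-linked regulators, 4 were measured and 0 called by limma, with a median response difference of -0.46, and 3 had an unadjusted p under 0.05. HHO3, a GARP family repressor of nitrate and phosphate starvation genes, had 1822, 1794 and 1760 in nlp7 at 35 min and 520, 489 and 438 in nlp7 at 0 min, against 2598, 2808 and 2521 in Col-0 at 35 min and 476, 474 and 429 in Col-0 at 0 min. The nlp7 arrays were lower at 35 min only, and the response difference of -0.62 ± 0.14 missed the threshold (adjusted p = 0.0924). Its relatives HHO1 and HHO2 had -0.81 ± 0.32 and -0.31 ± 0.12, and NRG2, a regulator of the nitrate response known to bind NLP7, had -0.14 ± 0.18. In nlp6nlp7 against nlp6, HHO1 was called, with -1.80 ± 0.32 (limma adjusted p = 0.00765). HHO3, HHO2 and NRG2 had -0.32, -0.14 and 0.32 there and were not called.

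PGM, annotated as a phosphoglycerate mutase gene, had 7456, 5640 and 6579 in nlp7 at 35 min and 349, 245 and 334 in nlp7 at 0 min, against 11189, 11016 and 12410 in Col-0 at 35 min and 261, 302 and 300 in Col-0 at 0 min. Its response was strong in both genotypes, at 4.30 in nlp7 and 5.20 in Col-0, and the difference of -0.90 ± 0.20 missed the threshold (limma adjusted p = 0.0835), as did -0.86 in nlp6nlp7 against nlp6 (adjusted p = 0.0835). PGD1, PGD2 and PGD3 encode enzymes of the oxidative pentose phosphate pathway, which supplies reductant for nitrite and nitrate reduction. Their response differences were -0.48, -0.15 and -0.41, none called (adjusted p of 0.229 or more). ICDH, a gene for isocitrate dehydrogenase, had -0.08.

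Of 11 CC-type glutaredoxin genes, a plant family that includes relays of nitrogen status, 10 were measured and 0 called by limma. Their median response difference was -0.29 with 9 of 10 below 0, against 47.4% of all probe sets, and 1 had an unadjusted p under 0.05. GRXS5 was the lowest, with 170, 97 and 143 in nlp7 at 35 min and 81, 66 and 48 in nlp7 at 0 min, against 258, 231 and 252 in Col-0 at 35 min and 42, 75 and 71 in Col-0 at 0 min (-0.82 ± 0.28, adjusted p = 0.514). Several of these genes are close paralogs, and probes may not separate them. Of 18 genes of uptake and assimilation, only the nitrate transporter gene NRT2.5 had a probe set matched to it, with 0.22 ± 0.34. The others may lie on unnamed probe sets, so this value does not describe uptake and assimilation genes as a group.

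ZAT10, a zinc finger gene of abiotic stress responses, had 418, 385 and 337 in nlp7 at 35 min and 865, 749 and 740 in nlp7 at 0 min, against 577, 744 and 571 in Col-0 at 35 min and 794, 876 and 610 in Col-0 at 0 min. It fell after nitrate in nlp7 (-1.0, limma adjusted p = 1.53e-05), while the -0.25 of Col-0 passed no test. The difference itself missed the threshold (-0.74 ± 0.17, adjusted p = 0.109). HRA1, which attenuates the low-oxygen response, fell in both genotypes, with a response of -0.89 in nlp7 and -1.41 in Col-0 (difference 0.51 ± 0.20, adjusted p = 0.654). In nlp6nlp7 against nlp6 its difference of 1.2 was called (adjusted p = 0.0041). No member was called by limma among 2 cytokinin and 4 auxin response genes, of which 0 had an unadjusted p under 0.05. In gene families read from symbols 0 members were called by limma: 47 UDP-glycosyltransferases (3 with an unadjusted p under 0.05), 26 cytochrome P450s (3), 18 expansins (3), 15 tetraspanins (2) and 14 SWEET sugar transporters (0). Their median response differences lay between -0.08 and 0.10. Over all probe sets 0.264% were called by limma, and 1379 of 22714 had an unadjusted p under 0.05. With so small a share called, 0 calls in families of this size do not set them apart.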

How the data were processed

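RNA of roots was hybridised to Affymetrix ATH1 arrays, 1 per sample, per the labels. The deposited values are intensity per probe set on a linear scale, whole numbers from 1 to 36178. They had been scaled before deposit, as the 24 means trimmed by 2% at both ends lay between 500.1 and 500.5. How probes were summarised is not stated in the sources used here. Medians per array ran from 163 to 196. Precision is limited by the number of arrays.

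Of 22776 probe sets, 62 controls were set apart and 22714 were tested with no filter. Names came from the platform's probe table: 13490 probe sets match 1 gene, 503 several and 8721 none. No array assembly is named, so no coordinates are given. Intensities were analysed as log2(intensity + 26), 26 being the 20th percentile of all values, which understates changes of dim genes. Limma 3.58.1 in R 4.3.3 fitted 1 model of 8 group means to all 24 arrays (16 residual degrees of freedom), and errors of log2 values are its standard errors. The contrasts were two-sided, p-values were Benjamini-Hochberg adjusted over the 22714 probe sets, and a call is an adjusted p under 0.05. The named genes were called probe sets that match 1 gene, up to 30 lowest and 10 highest, the measured members of the gene lists, and the 2 lowest and 2 highest unnamed called probe sets. The members, lists and tests were chosen with earlier results of these data known. Lists are described by counts and medians, with no test over a list. In 3 simulated data sets, each with 200 changed probe sets, the response difference recovered 24.9%, 84.6% and 97.5% of 1.5-, 2- and 4-fold changes among brighter probe sets, with 4.4% false calls. The simulated noise was independent for each probe set and array. Effects shared across an array or a replicate number were not simulated, so these rates may not hold for the real arrays. Alternatives were another normalization, centring, dim filters, pseudocounts of 3 and 103 (5th and 40th percentiles), variance models, array weights, replicate number as a block, only the arrays compared, 1 probe set per named gene, and arrays left out in turn. No 2 arrays held the same values. Python 3.11.15 was used for tables and plots.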

Additional observations from a re-analysis of the deposited data

Results flagged for a closer look

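The nitrate response differed between nlp7 and Col-0, by limma's test of the difference itself (adjusted p under 0.05), in 60 probe sets. The named genes with a lower response in nlp7, given as the difference of log2 responses nlp7 minus Col-0, began with AT1G80380 (-2.59), AT5G53750 (-2.48), AT5G52050 (-1.95), AT5G26200 (-1.86) and AT5G54170 (-1.42). They went on with AT1G49500 (-1.30), AT2G36470 (-1.18), AT5G03390 (-1.17), AT5G28610 (-1.09), AT1G79160 (-1.04), AT2G46620 (-1.01) and AT1G73920 (-1.0). Differences of less than 1 in size were those of AT3G18560 (-0.99), HYH (-0.97), TUA1 (-0.94), AT5G08010 (-0.92), AT4G18340 (-0.88), AT2G48080 (-0.86), AT3G50910 (-0.73) and AT5G15640 (-0.64). The difference was positive for AT4G17670 (1.13), AT1G11700 (1.04), AT4G23870 (0.89), AT2G19310 (0.88) and AT3G16990 (0.80). These genes fell after nitrate in Col-0, and the fall in nlp7 was smaller or not seen. No group held more than 3 arrays, so single arrays were not tested as outliers.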

How the results depend on the processing

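The count of 60 probe sets with a different response in nlp7 and Col-0 was 22 with a replicate block within genotype, 9 with only the arrays compared, 26 with nlp7 replicate 1 dropped, and 28 to 59 with 1 array left out. It was 56 with a replicate block of the number alone. The other settings gave 42 (pseudocount of 3) to 90 (pseudocount of 103). The count of 102 in nlp6nlp7 against nlp6 was 58 with only the arrays compared, 95 with a replicate block, 92 with one within genotype, and 69 to 101 with 1 array left out. Of the 381 probe sets induced in nlp6, 43 were called lower in nlp7, 18 with a replicate block within genotype, 9 with only the arrays compared, 23 with nlp7 replicate 1 dropped, and 23 to 42 with 1 array left out; the causes were not tested, beyond the fewer arrays or degrees of freedom that these settings leave. No result reversed under any setting run. Of the 25 named genes, 4 kept their call with only the arrays compared, 10 under the block within genotype and 11 with nlp7 replicate 1 dropped, with the same sign in 25. The main fit did not treat replicate numbers as pairs, as the labels name no pairing. Deviations of same-numbered arrays of nlp7 at 0 min and 35 min correlated at 0.469, 0.067 and 0.338 for replicates 1, 2 and 3. Between all other pairs of groups they correlated between -0.14 and 0.116, and 5 of 12 samples correlated best with their own number. An effect shared by nlp7 arrays of the same number thus may be present, and the block within genotype, which allows for it, gave the 22 above. A response difference had a median SE of 0.22 and recovered 24.9% of simulated 1.5-fold changes, so small differences may go uncalled.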

Other observations

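Of the 60 called probe sets, 34 match no gene in the probe table. The unnamed probe set with the lowest response difference, 252367_at, had 516, 370 and 394 in nlp7 at 35 min and 47, 31 and 27 in nlp7 at 0 min, against 1222, 1303 and 1805 in Col-0 at 35 min and 6, 37 and 27 in Col-0 at 0 min (-2.04 ± 0.32, limma adjusted p = 0.00613). The next, 255669_at, had 67, 61 and 74 in nlp7 at 35 min and 2, 8 and 1 in nlp7 at 0 min, against 352, 299 and 367 in Col-0 at 35 min and 1, 1 and 5 in Col-0 at 0 min (-2.03 ± 0.26, adjusted p = 0.000845). Both were also lower in nlp6nlp7 against nlp6, by -2.90 and -1.84. The highest, 258133_at, had 607, 459 and 650 in nlp7 at 35 min and 2021, 2581 and 2147 in nlp7 at 0 min, against 324, 376 and 418 in Col-0 at 35 min and 3129, 3790 and 4153 in Col-0 at 0 min (1.28 ± 0.19, adjusted p = 0.00386). Its difference in nlp6nlp7 against nlp6 was 2.11. The next highest, 250173_at, had 0.92 ± 0.16 (adjusted p = 0.015) in nlp7 against Col-0 and 0.43 in nlp6nlp7 against nlp6, where it was not called.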
